A study of Homo sapiens with 6 samples.

Results

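The genes described here bring glucose into the cell, break it down to pyruvate, and send pyruvate either to lactate or into the mitochondrion. They are 32 genes picked by name for these steps, without use of their measured values, out of the 23002 genes of the deposited table. All 32 were found in the table. Of these, 31 passed the filter on low values, which kept 11870 genes, and ALDOC did not.

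The cells were U251, a long-established glioblastoma line of human origin, and their messenger RNA was measured by sequencing. Both groups were stable lines made with a lentivirus and kept under puromycin, so the control cells carried a hairpin and the selection as well. The sh-NC group (n = 3) expressed a non-targeting short hairpin RNA, and the sh-TRAF2 group (n = 3) expressed one against TRAF2, an adaptor and ubiquitin ligase of TNF receptor signalling. The study names hairpins sh-TRAF2#1 and sh-TRAF2#2, and which of them was sequenced is not given in the sources used here. No source says how many separate lines stand behind a group, so a difference between lines that arose during selection cannot be told apart from an effect of the hairpin, and the p-values below measure only the spread between these samples.

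Levels are given as FPKM, which are fragments per kilobase of transcript scaled to depth, so that levels of different genes can be set side by side. Differences between groups are log2 fold changes of sh-TRAF2 against sh-NC on log2(FPKM + 0.1), with their standard error (SE) and the Benjamini-Hochberg adjusted p from limma over all 11870 genes. A gene is called higher or lower at an adjusted p under 0.05. The threshold of the study adds an absolute log2 fold change above 1.

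Reads recovered on genes ran from 33999558 to 36823562 per sample. TRAF2 itself had 1811, 2220 and 1925 reads in sh-NC and 383, 373 and 394 reads in sh-TRAF2, which fits the labels. Of 10 glioma and astrocyte markers, 7 were in the table and 6 were tested. VIM, CD44 (177 to 192 FPKM) and SOX2 (24.1 to 28.7 FPKM) were high in every sample, while GFAP was low and S100B was at 0 in 5 of 6 samples. By limma, 4 of the 6 (66.7%) were called higher in sh-TRAF2, against 23.7% of all genes tested. Their log2 fold changes were 1.12 for NES, 1.11 for GFAP, 0.47 for SLC1A3 and 0.35 for VIM. SOX2 (log2 fold change 0.12) and CD44 (-0.07) were not called. NES, a neural progenitor filament, was at 4.82 to 5.88 FPKM in sh-NC and 11.4 to 11.8 FPKM in sh-TRAF2, and GFAP was at 0.334 to 0.666 and 0.562 to 1.62 FPKM. The summed level of the markers, mostly VIM, was 1437 to 1515 FPKM in sh-NC and 1791 to 1840 FPKM in sh-TRAF2, and its part in the results below was not tested. Of 14 markers of other cell types in the table, 12 had a mean FPKM under 0.5. The exceptions were CD68 and KRT18, and KRT18 was higher in sh-TRAF2 (26.5 to 27.8 FPKM, against 16.3 to 18.6 FPKM in sh-NC).

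In glycolysis, glucose enters through facilitative transporters and is trapped as glucose 6-phosphate by hexokinase. Phosphofructokinase then commits it to breakdown, and the lower enzymes recover ATP and NADH on the way to pyruvate. Tumour cells, glioblastoma included, are known for turning much of this pyruvate into lactate even when oxygen is present, and the transcription factors HIF-1 and MYC are the best known activators of these genes. Lactate dehydrogenase makes lactate and monocarboxylate transporters release it, whereas the mitochondrial pyruvate carrier and the pyruvate dehydrogenase complex feed pyruvate to the citric acid cycle, under the brake of the pyruvate dehydrogenase kinases.

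The share of the transcriptome held by the whole set differed between the groups by less than its spread among samples. The 32 genes held 1.68%, 1.59% and 1.80% of all FPKM in sh-NC replicates 1, 2 and 3, and 1.69%, 1.68% and 1.72% in sh-TRAF2. The means were 1.69% ± 0.103 (SD, n = 3) and 1.69% ± 0.0214 (SD, n = 3), and the sh-TRAF2 samples lay inside the range of the sh-NC samples (two-sided exact permutation test, p = 1). Most of this came from GAPDH, ENO1, PKM, TPI1 and LDHB, which together made up 83.6% of it in each group on average. ALDOA and LDHA had means of only 2.23 and 9.76 FPKM in sh-NC. Their levels are uncertain for reasons given below, and so is what they add to these shares.

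After TRAF2 knockdown, 4 of the 31 tested genes were called higher and 4 were called lower. The higher genes were ENO1, ENO2, LDHB and PDHB, and the lower genes were SLC2A3, PFKM, SLC16A1 and PDK2. The 8 calls are 25.8% of the tested genes, against 44.6% of all genes tested. Higher calls were 23.7% and lower calls 20.9% of all genes tested. With all samples, no log2 fold change of the 31 exceeded 1 in size with limma or with limma-voom on the recovered reads. None therefore passed the threshold of the study at any p. Of all genes tested, 0.986% passed it as higher and 0.733% as lower. PFKM came nearest to it.

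The median log2 fold change was 0.02 for the 31 genes and 0.02 for all genes tested, and 19 lay above 0 and 12 below. The median size of the change, regardless of its sign, was 0.14 for these genes and 0.19 for all genes. The groups did not overlap, with all samples of 1 group above all of the other, for 6 genes that were higher and 5 that were lower. Across all genes tested, 29.0% did not overlap with sh-TRAF2 higher and 26.5% with sh-TRAF2 lower, 55.5% in all.

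**Figure D1:**
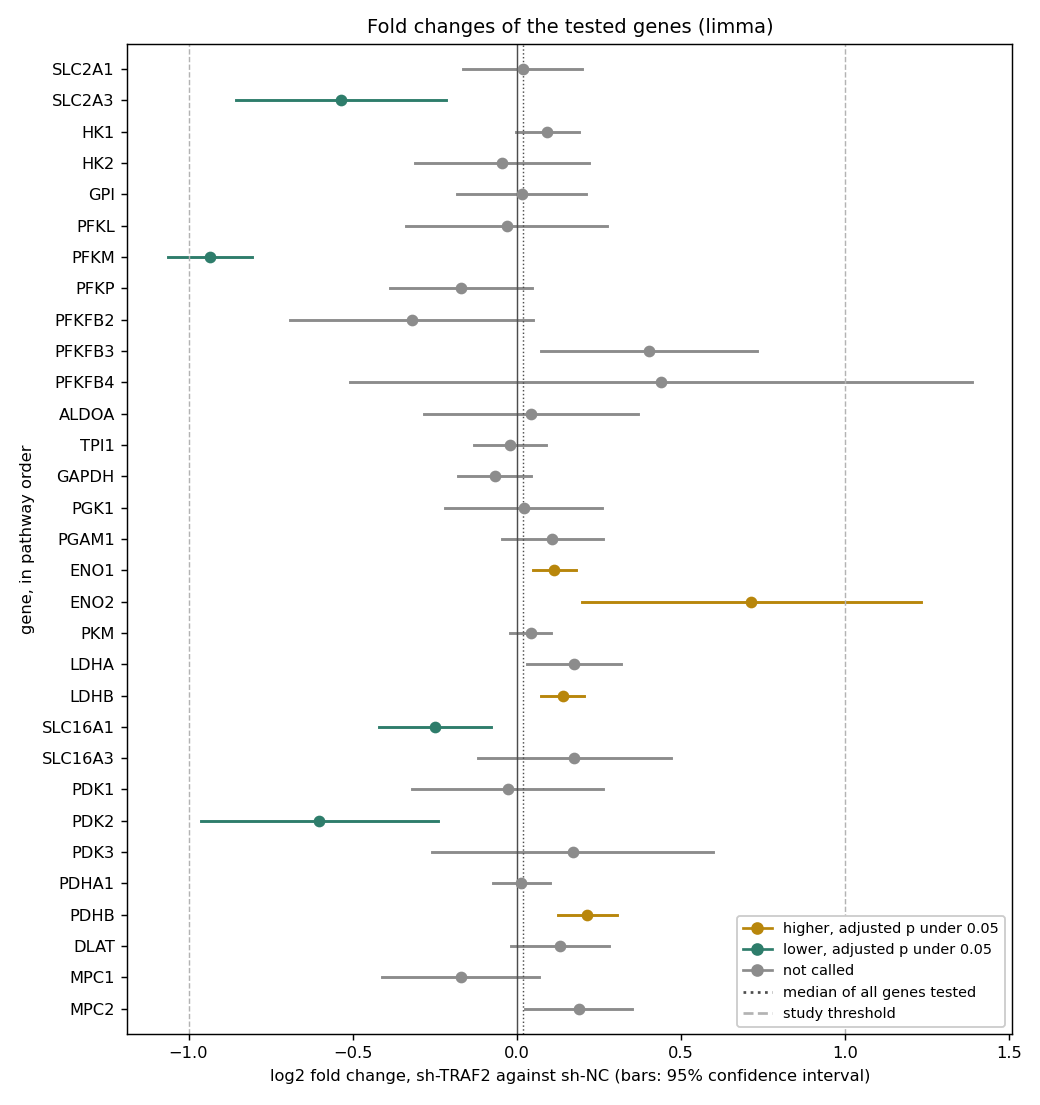
Log2 fold changes of the 31 tested genes with their 95% confidence intervals, in pathway order; the dotted line is the median of all genes tested (0.02) and the dashed lines are the threshold of the study at -1 and 1. PFKM (-0.94) lies farthest from 0, ENO2 (0.71) is the largest rise, and 23 of the 31 genes were not called.

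One sh-NC sample stood apart in these genes, and several results below rest on it. Among the 31 tested genes, sh-NC replicate 3 was the highest of the 3 control samples for 22 (71.0%), against 33.1% of all genes tested. Replicate 2 was the lowest for 24 (77.4%), against 36.3%. Both held for 21 genes (67.7%), against 20.3% of all genes. The spread within sh-NC was thus wide, with a median range of 0.32 on the log2 scale, while within sh-TRAF2 it was 0.08. Over all genes tested the ranges were 0.15 and 0.14. For 28 of the 31 genes the range was wider in sh-NC than in sh-TRAF2, and for 11 (35.5%, against 7.72% of all genes) all sh-TRAF2 samples lay inside the sh-NC range.

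The same order of the control samples appeared in 23 tested HIF-1 targets that are not part of the pathway. Replicate 3 was the highest control sample in 23 of 23 and replicate 2 the lowest in 22. Their median range was 0.84 within sh-NC and 0.14 within sh-TRAF2. CA9, a carbonic anhydrase and hypoxia marker, was at 12.1, 4.10 and 26.6 FPKM in sh-NC and at 10.4, 8.28 and 7.71 FPKM in sh-TRAF2 (chosen after its values were seen). HIF1A messenger RNA did not follow this order, at 225, 254 and 234 FPKM in sh-NC, and its protein was not measured in these data. What set replicate 3 apart was not tested. Results that lean on it are therefore also given without it.

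**Figure D2:**
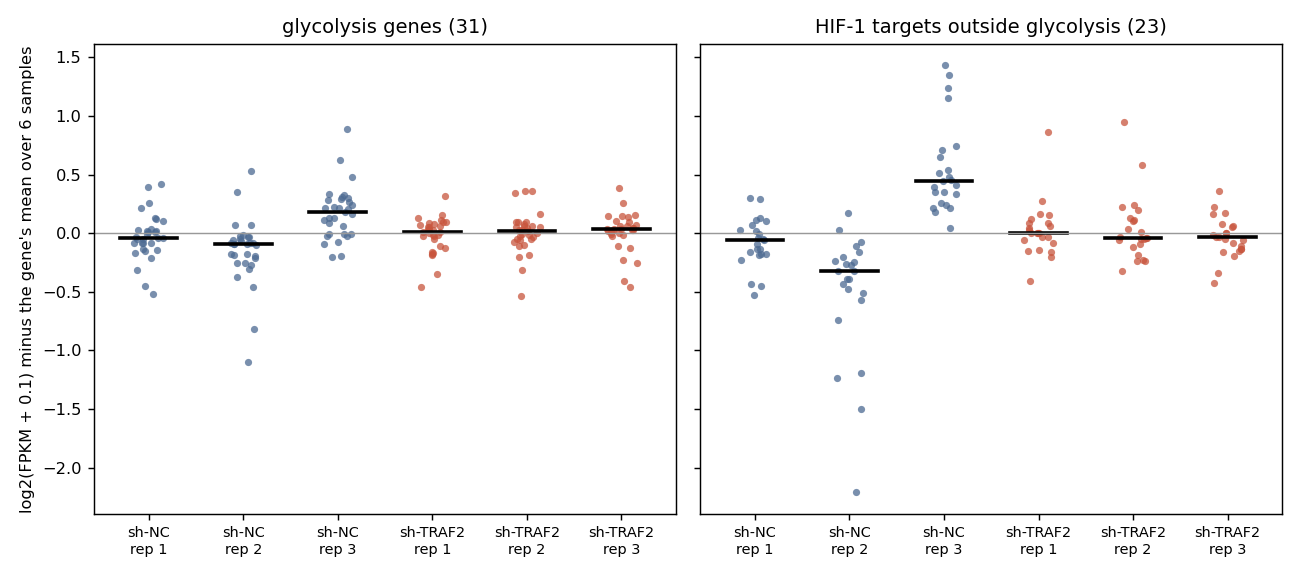
Deviation of each gene from its own mean over the 6 samples, on the log2 scale, for the 31 tested glycolysis genes (left) and 23 tested HIF-1 targets outside the pathway (right); each point is a gene and each bar the median of a sample. In sh-NC replicates 1, 2 and 3 the medians are -0.04, -0.09 and 0.18 for the glycolysis genes and -0.06, -0.32 and 0.45 for the HIF-1 targets, while the sh-TRAF2 medians lie between -0.04 and 0.03.

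Glucose transporters came first in the pathway. SLC2A1 (GLUT1), the common transporter of proliferating cells, was the more abundant, at 119.7, 108 and 139 FPKM in sh-NC and 121, 122 and 126 FPKM in sh-TRAF2. The sh-TRAF2 samples lay inside the control range, with a log2 fold change of 0.02 (SE 0.08, 95% confidence interval -0.16 to 0.20, adjusted p = 0.872).

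SLC2A3 (GLUT3), a transporter of high glucose affinity typical of neurons, stood at 45.6, 38.4 and 60.7 FPKM in sh-NC and at 30.9, 34.1 and 32.9 FPKM in sh-TRAF2. All sh-TRAF2 samples were below all sh-NC samples, although the lowest control came close. SLC2A3 fell by 0.54 on the log2 scale (SE 0.14, adjusted p = 0.0149). Without sh-NC replicate 3 the log2 fold change was -0.36 (adjusted p = 0.00972). The call was lost without sh-TRAF2 replicate 1 (adjusted p = 0.0514) and with no filter on low values (adjusted p = 0.0588). SLC2A3 held 28.1% ± 2.16 of both transporters' FPKM in sh-NC and 20.96% ± 0.732 in sh-TRAF2 (SD, n = 3 each). The summed level of the transporters overlapped between groups, with means of 170 ± 26.9 and 156 ± 3.68 FPKM (SD, n = 3 each; two-sided exact permutation test, p = 0.5).

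No gene of the first enzymes was called. HK1, the housekeeping hexokinase, read 35.4, 34.0 and 36.2 FPKM in sh-NC and 37.1, 38.9 and 36.7 FPKM in sh-TRAF2, groups that did not overlap but with a log2 fold change of only 0.09 (adjusted p = 0.105). HK2, the inducible hexokinase of tumours, read 33.2, 30.8 and 44.3 FPKM in sh-NC and 33.9, 35.0 and 34.7 FPKM in sh-TRAF2. Its control samples enclosed the knockdown samples (log2 fold change -0.04, 95% confidence interval -0.31 to 0.22). The same was true of GPI, which turns glucose 6-phosphate into fructose 6-phosphate, at 44.4 to 58.2 FPKM in sh-NC and 49.7 to 51.5 FPKM in sh-TRAF2.

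The clearest change was at 6-phosphofructo-1-kinase, the committing enzyme, which is built from muscle (PFKM), platelet (PFKP) and liver (PFKL) subunits. PFKM had 14.6, 16.1 and 15.5 FPKM in sh-NC and 8.06, 7.63 and 8.32 FPKM in sh-TRAF2, from 2635 to 2916 reads and from 1325 to 1477 reads per sample. The groups were far apart, and sh-NC replicate 3 lay between the other control samples. PFKM fell by 48.0%, a log2 fold change of -0.94 (SE 0.06, 95% confidence interval -1.06 to -0.81, adjusted p = 1.18e-05). It was called in each of the 6 fits that left out 1 sample, between -0.97 and -0.90. As the samples are bulk RNA, less RNA per cell and fewer cells with the transcript cannot be told apart. PFKM overlaps SENP1 on the opposite strand, and whether the counting used strand is not given in the sources used here. SENP1, a SUMO protease, had a log2 fold change of -0.30 (adjusted p = 0.00629).

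The other subunits were not called. PFKP, the most abundant subunit, was at 37.4, 34.8 and 45.6 FPKM in sh-NC and 32.3, 35.5 and 36.2 FPKM in sh-TRAF2 (log2 fold change -0.17, SE 0.09, adjusted p = 0.176). PFKL was at 8.07, 6.66 and 9.69 FPKM in sh-NC and 7.02, 7.87 and 8.84 FPKM in sh-TRAF2 (log2 fold change -0.03, SE 0.13, adjusted p = 0.867). Both overlapped between groups.

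The groups also did not overlap in the subunit make-up of the enzyme's transcripts. PFKM supplied 24.4%, 27.95% and 21.9% of the summed subunit FPKM in sh-NC and 17.0%, 14.97% and 15.6% in sh-TRAF2. The mean share was 24.7% ± 3.04 in sh-NC and 15.9% ± 1.04 in sh-TRAF2 (SD, n = 3 each), a difference of -8.88 percentage points. The share of PFKP was 62.4% ± 1.98 in sh-NC and 68.6% ± 0.928 in sh-TRAF2, and that of PFKL was 12.9% ± 1.14 and 15.6% ± 0.883 (SD, n = 3 each). For each subunit the groups did not overlap (exact two-sided permutation p = 0.1, below which 3 samples against 3 cannot go, and 0.162 adjusted over 21 shares). The shares are tied to each other, and the levels of PFKP and PFKL themselves overlapped between groups. The summed subunits were at 60.1, 57.5 and 70.8 FPKM in sh-NC and 47.4, 51.0 and 53.4 FPKM in sh-TRAF2, again without overlap (exact permutation p = 0.1). The log2 ratio of the means was -0.31, and -0.22 without sh-NC replicate 3.

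**Figure D3:**
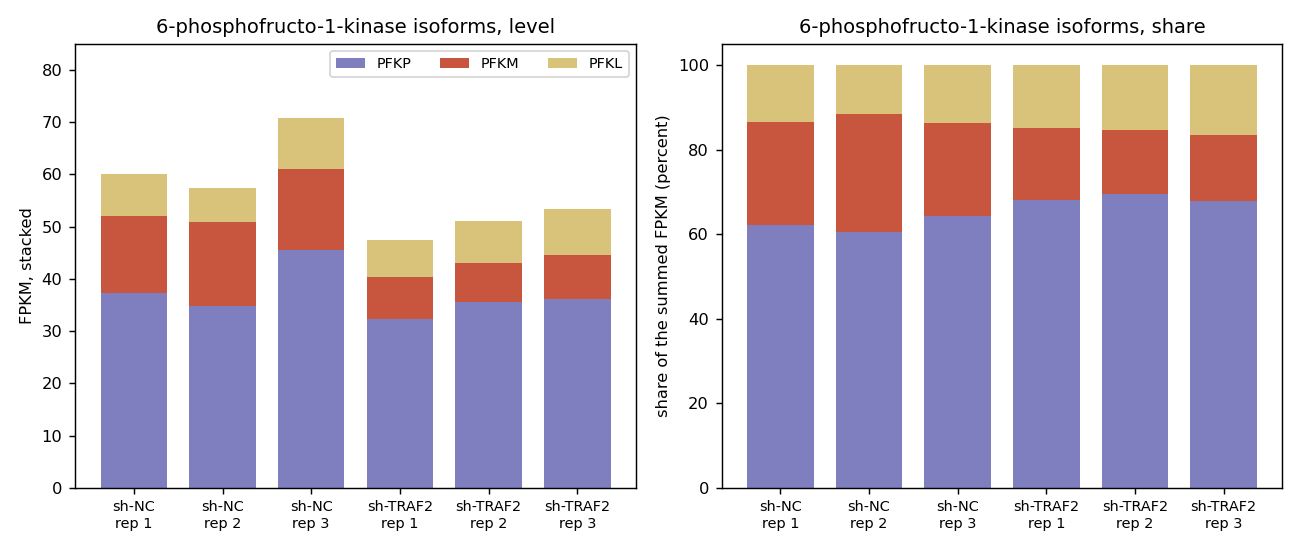
FPKM of the 3 subunits of 6-phosphofructo-1-kinase, stacked, in each sample (left) and the percent of the summed FPKM that each took (right). The PFKM segment is 14.6 to 16.1 FPKM in the sh-NC samples and 7.63 to 8.32 FPKM in the sh-TRAF2 samples, and its share is 21.9% to 27.95% and 14.97% to 17.0%.

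The PFKFB enzymes make and remove fructose 2,6-bisphosphate, the strongest activator of phosphofructokinase, and PFKFB3 favours its synthesis. PFKFB3 was at 30.7, 27.6 and 42.8 FPKM in sh-NC and 41.1, 48.3 and 42.3 FPKM in sh-TRAF2. Only sh-NC replicate 3 reached the knockdown samples. The log2 fold change was 0.40 (SE 0.14, adjusted p = 0.0501), just outside the threshold, and without that sample it was 0.59 (adjusted p = 0.00118). PFKFB3 was also called with a filter at a mean of 1 FPKM (adjusted p = 0.0457), with a pseudocount of 1 (adjusted p = 0.0493) and with limma-voom (adjusted p = 0.0163). PFKFB4, another isoform with a known hypoxia response, was at 2.88, 1.81 and 7.46 FPKM in sh-NC and 4.09, 5.15 and 4.78 FPKM in sh-TRAF2. It had the widest spread of the set, a ratio of 4.12 between the highest and lowest control. Its log2 fold change was 0.44 (SE 0.41, adjusted p = 0.415) with all samples, 0.99 (adjusted p = 0.00473) without sh-NC replicate 3 and 0.0022 (adjusted p = 0.996) without sh-NC replicate 2. PFKFB2, the isoform best known from heart, was low at 0.609 to 0.725 FPKM in sh-NC and 0.493 to 0.519 FPKM in sh-TRAF2 (log2 fold change -0.32, adjusted p = 0.141), and was called without a trend in eBayes (adjusted p = 0.012) and with limma-voom (adjusted p = 0.0236).

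Aldolase splits the 6-carbon sugar. ALDOA had only 138 to 206 reads per sample and 1.79 to 2.69 FPKM, and overlaps LOC112694756 on its own strand, so its level is uncertain (log2 fold change 0.04, adjusted p = 0.823). ALDOC, the brain aldolase, had 6, 11 and 9 reads in sh-NC and 3, 2 and 2 reads in sh-TRAF2 and lay under the filter. With no filter ALDOC was called lower, on these few reads (log2 fold change -0.77, adjusted p = 0.0175). The next enzymes, which carry the triose phosphates to phosphoglycerate, were among the most abundant transcripts and did not separate the groups. TPI1, the triosephosphate isomerase, lay at 413 to 473 FPKM in sh-NC and 426 to 441 FPKM in sh-TRAF2.

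GAPDH, whose product feeds the first ATP-forming step, measured 2105, 1961 and 2254 FPKM in sh-NC and 2016, 1953 and 2054 FPKM in sh-TRAF2. Its log2 fold change was -0.07 (SE 0.05, 95% confidence interval -0.18 to 0.04, adjusted p = 0.283) and became -0.12 (adjusted p = 0.0354) without sh-NC replicate 2, while under quantile normalization it was 0.08. PGK1, the phosphoglycerate kinase, measured 201, 164 and 231 FPKM in sh-NC and 206, 191 and 202 FPKM in sh-TRAF2, inside the control range. PGAM1, the phosphoglycerate mutase, measured 136, 121 and 149 FPKM in sh-NC and 149, 145 and 142 FPKM in sh-TRAF2. For PGAM1 the log2 fold change was 0.11 (adjusted p = 0.224), and 0.18 (adjusted p = 0.0343) without sh-NC replicate 3. Without sh-NC replicate 2 it was 0.03 (adjusted p = 0.628). GAPDH has 65 and PGAM1 13 pseudogenes by name in RefSeq, with which reads could be shared.

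Both enolases of the set, which form phosphoenolpyruvate, were called higher. ENO1, the abundant form, was at 1376, 1374 and 1453 FPKM in sh-NC and 1508, 1519 and 1522 FPKM in sh-TRAF2. The groups did not overlap, and ENO1 rose by a small amount, 8.23% (log2 fold change 0.11, SE 0.03, adjusted p = 0.0131). Without sh-NC replicate 1 its adjusted p was 0.0502, and with no filter on low values it was 0.170. ENO2, the neuronal form and a known HIF-1 target, was at 16.8, 13.7 and 28.96 FPKM in sh-NC and 30.1, 31.1 and 31.5 FPKM in sh-TRAF2. The knockdown samples were nearly alike, and sh-NC replicate 3 lay just below them, far above the other controls. ENO2 rose by 0.71 on the log2 scale (SE 0.23, 95% confidence interval 0.20 to 1.23, adjusted p = 0.0319). Without sh-NC replicate 3 the log2 fold change was 1.02 (adjusted p = 1.48e-04), past the threshold of the study, and in the other 5 fits that left out 1 sample ENO2 was not called, nor with no filter on low values (adjusted p = 0.107). ENO2 made up 1.38% ± 0.508 of enolase FPKM in sh-NC and 2.00% ± 0.0353 in sh-TRAF2 (SD, n = 3 each).

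PKM, the pyruvate kinase that ends the pathway, was at 788, 755 and 772 FPKM in sh-NC and 785, 798 and 801 FPKM in sh-TRAF2. The groups overlapped, with a log2 fold change of 0.04 (SE 0.03, 95% confidence interval -0.02 to 0.10, adjusted p = 0.24). A gene-level value does not separate the M1 and M2 splice forms.

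**Figure D4:**
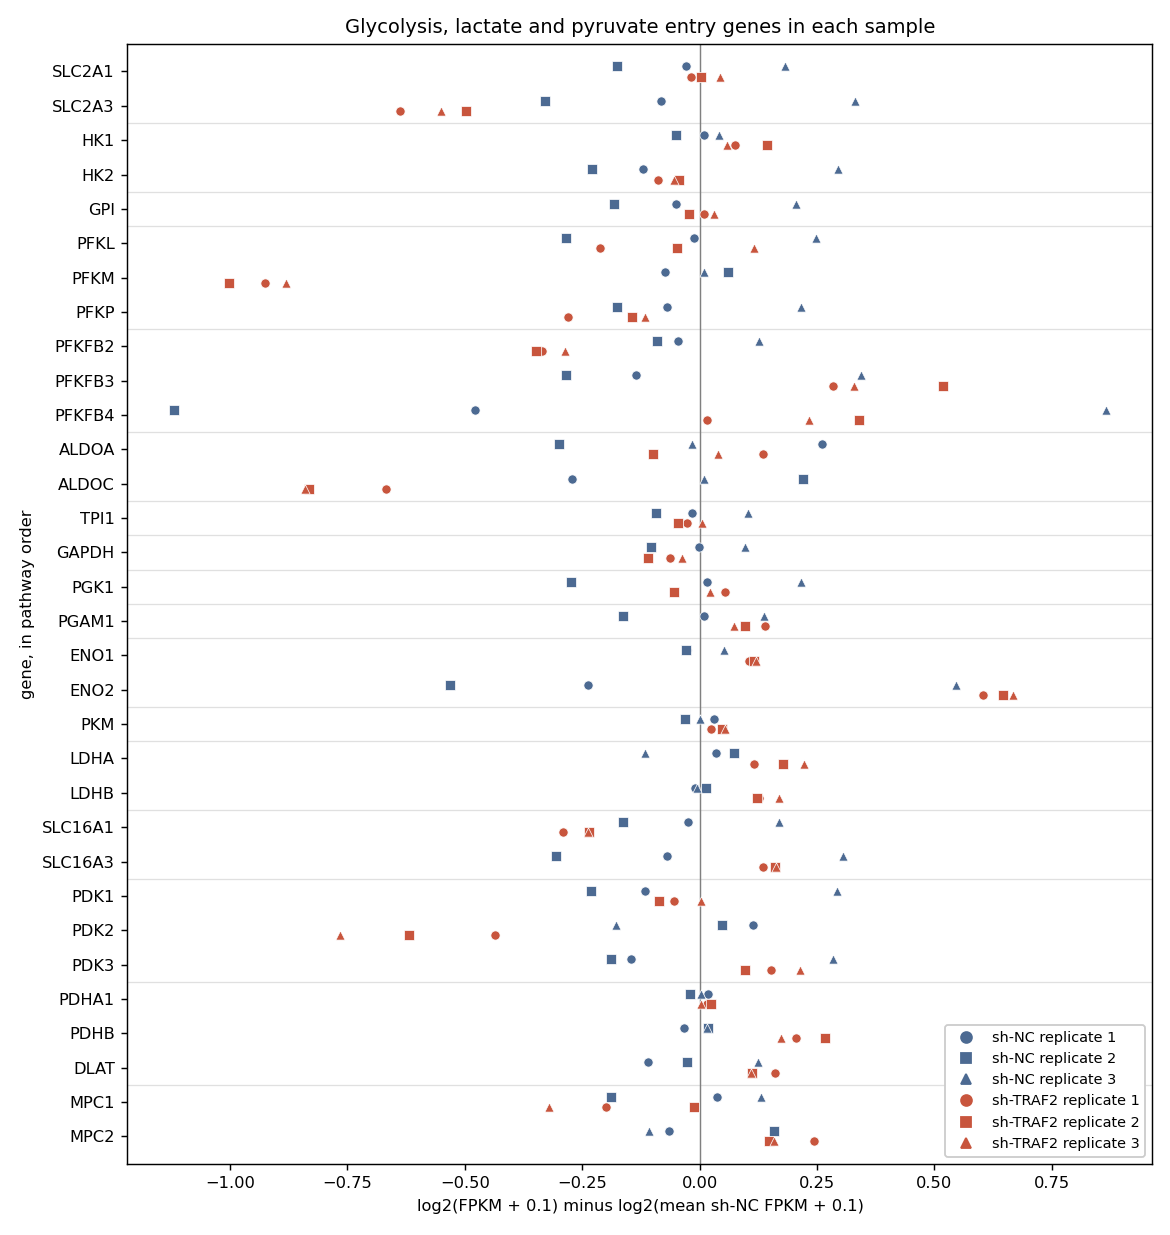
Each sample of each of the 32 genes on the log2(FPKM + 0.1) scale, relative to the log2 of the mean sh-NC FPKM + 0.1; blue is sh-NC, red is sh-TRAF2, and the marker gives the replicate. The sh-TRAF2 samples of PFKM lie near -0.94, apart from its controls, while for ENO2, PFKFB4 and other genes sh-NC replicate 3 (blue triangle) lies far to the right of sh-NC replicate 2 (blue square).

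Lactate dehydrogenase is a tetramer of LDHA and LDHB subunits, of which LDHB is known to favour the use of lactate. LDHB was by far the more abundant here, at 225, 229 and 226 FPKM in sh-NC and 248, 247 and 255 FPKM in sh-TRAF2. The control samples differed from each other by only 2.06 FPKM (SD), and all knockdown samples lay above them. LDHB rose by 10.2% (log2 fold change 0.14, SE 0.03, adjusted p = 0.00498) and was called in each of the 6 fits that left out 1 sample. LDHA, which favours lactate formation, was at 10.01, 10.3 and 8.99 FPKM in sh-NC and 10.6, 11.1 and 11.4 FPKM in sh-TRAF2. Its groups did not overlap either, but the log2 fold change of 0.17 missed the threshold (SE 0.06, adjusted p = 0.0509). LDHA was called without sh-NC replicate 2 (adjusted p = 0.036) and with a filter at a mean of 1 FPKM (adjusted p = 0.047). Without sh-NC replicate 3, its lowest control, the log2 fold change was 0.12 (adjusted p = 0.151). Among the 6 fits that left out 1 sample, LDHA was called only without sh-NC replicate 2. The share of LDHA was 4.12% ± 0.258 in sh-NC and 4.22% ± 0.108 in sh-TRAF2 (SD, n = 3 each) and differed by less than its spread among samples. The 836 to 1001 reads of LDHA and its 6 pseudogenes by name limit how its level can be read.

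The monocarboxylate transporters, which carry lactate across the plasma membrane, were SLC16A1 and SLC16A3. SLC16A1 (MCT1) was at 77.4, 70.4 and 88.5 FPKM in sh-NC and 64.4, 66.8 and 66.8 FPKM in sh-TRAF2. All knockdown samples were below the lowest control, by a small margin. SLC16A1 fell by 16.2% (log2 fold change -0.25, SE 0.07, adjusted p = 0.0252), but among the 6 fits that left out 1 sample it was called only without sh-NC replicate 2 (log2 fold change -0.33, adjusted p = 0.00393) or replicate 3 (log2 fold change -0.16, adjusted p = 0.0396). SLC16A1 was also not called with no filter on low values (adjusted p = 0.0796) or without a trend in eBayes (adjusted p = 0.0627). SLC16A3 (MCT4), the exporter of strongly glycolytic cells and a known HIF-1 target, was at 27.1, 23.0 and 35.2 FPKM in sh-NC and 31.2, 31.8 and 31.8 FPKM in sh-TRAF2. Its control range enclosed the knockdown samples (log2 fold change 0.18, adjusted p = 0.297), and without sh-NC replicate 3 the log2 fold change was 0.34 (adjusted p = 0.00759). Without sh-NC replicate 2 it was 0.03 (adjusted p = 0.802).

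Within each sample the pair was more regular. SLC16A1 took 74.1%, 75.4% and 71.6% of their summed FPKM in sh-NC and 67.3%, 67.8% and 67.7% in sh-TRAF2. The difference of the means was -6.06 percentage points, without overlap between groups (exact permutation p = 0.1, and 0.162 adjusted over 21 shares). SLC16A3 overlaps CSNK1D, which had a log2 fold change of -0.32 (adjusted p = 0.00161). BSG (basigin), the chaperone that brings these transporters to the membrane, rose from 311, 311 and 313 FPKM in sh-NC to 334, 345 and 342 FPKM in sh-TRAF2 (log2 fold change 0.13, SE 0.03, adjusted p = 0.00574). SLC16A7 (MCT2) was low, at 0.521 to 0.610 FPKM in sh-NC and 0.667 to 0.730 FPKM in sh-TRAF2, and was not called (adjusted p = 0.184).

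Pyruvate enters mitochondria through the carrier formed by MPC1 and MPC2. MPC1 was at 5.73, 4.89 and 6.13 FPKM in sh-NC and 4.85, 5.54 and 4.45 FPKM in sh-TRAF2 (log2 fold change -0.17, SE 0.10, adjusted p = 0.215). MPC2 was at 20.3, 23.7 and 19.7 FPKM in sh-NC and 25.1, 23.5 and 23.7 FPKM in sh-TRAF2 (log2 fold change 0.19, SE 0.07, adjusted p = 0.0601). Both overlapped between groups, and neither was called, although without sh-NC replicate 2 MPC2 was (log2 fold change 0.27, adjusted p = 0.00411). MPC2 overlaps DCAF6, which had a log2 fold change of 0.18.

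Inside the mitochondrion the pyruvate dehydrogenase complex turns pyruvate into acetyl-CoA. PDHB, the beta subunit of its first enzyme, rose from 43.3, 44.9 and 44.8 FPKM in sh-NC to 51.1, 53.3 and 49.95 FPKM in sh-TRAF2. The groups were well apart, and the log2 fold change of 0.22 (SE 0.04, 95% confidence interval 0.13 to 0.30, adjusted p = 0.00273) was called in each of the 6 fits that left out 1 sample. PDHA1, the alpha subunit that binds PDHB, was not called, at 20.1 to 20.6 FPKM in sh-NC and 20.4 to 20.7 FPKM in sh-TRAF2 (log2 fold change 0.01, 95% confidence interval -0.07 to 0.10). DLAT, the second enzyme, was at 9.29, 9.84 and 10.95 FPKM in sh-NC and 11.2, 10.8 and 10.8 FPKM in sh-TRAF2 (log2 fold change 0.13, adjusted p = 0.135). The log2 fold change of DLAT was 0.20 (adjusted p = 0.0308) without sh-NC replicate 3 and 0.08 (adjusted p = 0.385) without sh-NC replicate 1.

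Subunits of the complex outside the 32 genes rose as well. PDHX, which tethers the third enzyme, was at 21.9, 24.1 and 22.4 FPKM in sh-NC and 28.99, 29.8 and 29.2 FPKM in sh-TRAF2 (log2 fold change 0.36, SE 0.05, adjusted p = 4.56e-04). DLD, the third enzyme, was at 55.6, 53.9 and 53.3 FPKM in sh-NC and 59.4, 58.5 and 58.2 FPKM in sh-TRAF2 (log2 fold change 0.11, SE 0.03, adjusted p = 0.0264). Neither overlapped between groups. The summed FPKM of PDHA1, PDHB and DLAT was 74.7 ± 1.48 in sh-NC and 83.0 ± 1.87 in sh-TRAF2 (SD, n = 3 each), again without overlap (exact permutation p = 0.1).

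The kinases that switch the complex off and the phosphatases that switch it on differed among themselves. PDK2 was at 1.08, 1.03 and 0.867 FPKM in sh-NC and 0.708, 0.611 and 0.542 FPKM in sh-TRAF2, from 158, 151 and 132 reads and 101, 86 and 78 reads. All knockdown samples were below all controls. PDK2 fell by 0.60 on the log2 scale (SE 0.16, adjusted p = 0.015), lost its call without sh-NC replicate 1 or sh-TRAF2 replicate 3 (adjusted p up to 0.0539), and overlaps PDK2-AS1 and SAMD14. Its low level makes the size of the change depend on the constant added before the logarithm, and with 1 in place of 0.1 it was -0.30. PDK1, the most abundant kinase and a known HIF-1 target, was at 3.07, 2.83 and 4.11 FPKM in sh-NC and 3.21, 3.14 and 3.35 FPKM in sh-TRAF2, inside the control range. PDK3 was at 0.488, 0.470 and 0.692 FPKM in sh-NC and 0.622, 0.595 and 0.654 FPKM in sh-TRAF2, also inside it, and PDK4 had at most 0.257 FPKM. Of the phosphatase subunits, PDP1 and PDP2 were not called (log2 fold changes -0.02 and -0.09). PDPR, the regulatory subunit that holds the phosphatase back, fell from 15.8, 14.95 and 15.6 FPKM to 11.5, 10.9 and 11.5 FPKM (log2 fold change -0.45, SE 0.05, adjusted p = 1.82e-04).

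**Figure D5:**
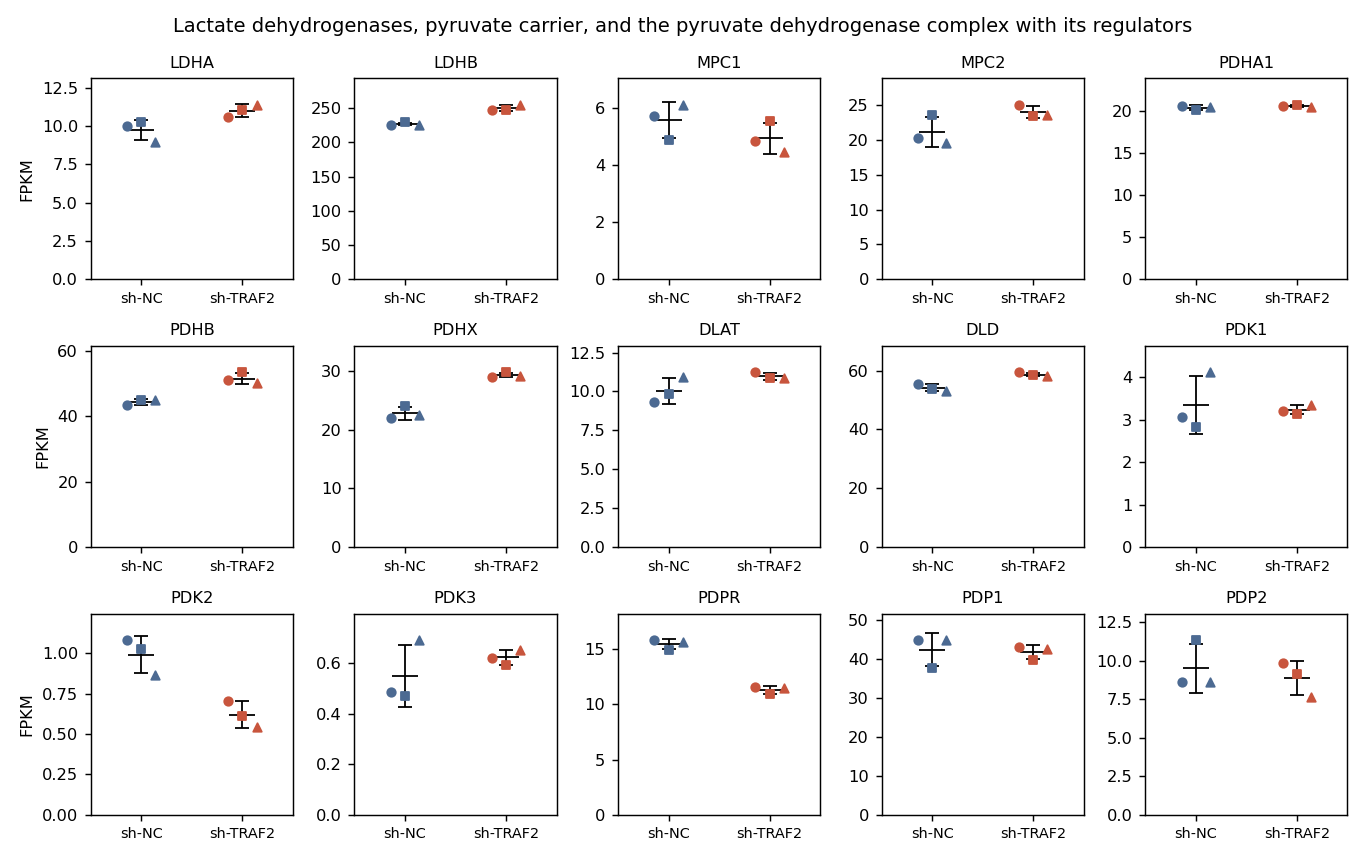
FPKM of 15 genes that handle pyruvate, in each sh-NC (blue) and sh-TRAF2 (red) sample, with the mean and SD of each group (n = 3) in black and axes starting at 0. LDHB, PDHB, PDHX and DLD lie higher in all sh-TRAF2 samples and PDK2 and PDPR lower, while PDHA1 and PDP1 overlap between groups.

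Levels were summed over the isoforms of a step, or over different subunits for the pyruvate dehydrogenase complex and the mitochondrial pyruvate carrier. The 17 steps of the pathway divided into 3 with all sh-TRAF2 samples higher, 1 with all of them lower and 13 with overlap. Thus 23.5% of the steps did not overlap, against 55.5% of all genes tested, which are single genes and not sums. The higher steps were enolase (means 1421 and 1547 FPKM), lactate dehydrogenase (237 and 261 FPKM) and the pyruvate dehydrogenase complex, and the lower step was 6-phosphofructo-1-kinase. Of the subunits summed for the complex, PDHB was called higher, while PDHA1 and DLAT were not called. LDHB made up 95.9% of the lactate dehydrogenase sum in sh-NC and 95.8% in sh-TRAF2, and the level of LDHA is uncertain. Of 21 isoform shares, 13 (61.9%) did not overlap between groups, against 55.5% of all genes tested. Shares within a step are tied to each other, and the 13 came from 7 of 9 steps, in 4 of which they were the mirrored shares of 2 isoforms. The exact permutation test used for them cannot reach 0.05 with 3 samples against 3, and the smallest adjusted p was 0.162.

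The remaining genes of the pathway came from a list of 50, of which 44 were in the table and 25 were tested. Of these, 6 were called higher and 8 lower, 56.0% in all, against 44.6% of all genes tested, and 1 passed the threshold of the study as lower, which 0.733% of all genes did. That gene was HKDC1, a hexokinase-like protein, which fell from 4.80, 3.14 and 4.19 FPKM to 1.27, 2.07 and 2.03 FPKM (log2 fold change -1.14, SE 0.21, adjusted p = 0.00254). ADPGK, an ADP-dependent glucokinase, rose from 4.42 to 4.67 FPKM in the controls to 6.18 to 6.35 FPKM (log2 fold change 0.44, adjusted p = 3.87e-04). GPD2, the mitochondrial glycerol phosphate dehydrogenase, fell from 12.7 to 14.1 FPKM in the controls to 8.92 to 9.80 FPKM (log2 fold change -0.52, adjusted p = 2.91e-04). TIGAR, which lowers fructose 2,6-bisphosphate, fell by 0.30 on the log2 scale (SE 0.08, adjusted p = 0.014). BPGM, which makes 2,3-bisphosphoglycerate, rose by 0.42 (SE 0.07, adjusted p = 0.00244).

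Promoter sequences were read for 4 of the genes, PFKM for its fall, ENO2 and PFKFB4 for their wide control spread, and PGK1 as a textbook hypoxia-responsive promoter. Each window runs from 250 bases before to 50 bases after a transcription start in RefSeq (GRCh38.p14), is written 5′ to 3′ on the gene's strand, and has ACGTG, the core of the hypoxia response element, or its reverse complement CACGT in capitals. They are chr12:48105623-48105922 on the plus strand for PFKM, chr12:6914330-6914629 on the plus strand for ENO2, chr3:48556754-48557053 on the minus strand for PFKFB4 and chrX:78103998-78104297 on the plus strand for PGK1.
PFKM: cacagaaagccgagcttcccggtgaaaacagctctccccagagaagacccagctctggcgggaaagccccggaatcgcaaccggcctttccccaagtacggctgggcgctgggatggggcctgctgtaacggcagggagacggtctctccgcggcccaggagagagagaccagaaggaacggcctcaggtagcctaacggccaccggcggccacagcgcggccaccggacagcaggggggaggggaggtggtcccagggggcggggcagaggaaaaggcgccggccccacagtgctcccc
ENO2: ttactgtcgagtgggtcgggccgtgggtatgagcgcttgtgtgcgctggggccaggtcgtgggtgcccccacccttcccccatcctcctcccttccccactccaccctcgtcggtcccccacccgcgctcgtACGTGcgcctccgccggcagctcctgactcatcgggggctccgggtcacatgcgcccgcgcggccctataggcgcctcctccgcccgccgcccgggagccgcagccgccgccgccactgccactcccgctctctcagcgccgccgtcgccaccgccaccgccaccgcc
PFKFB4: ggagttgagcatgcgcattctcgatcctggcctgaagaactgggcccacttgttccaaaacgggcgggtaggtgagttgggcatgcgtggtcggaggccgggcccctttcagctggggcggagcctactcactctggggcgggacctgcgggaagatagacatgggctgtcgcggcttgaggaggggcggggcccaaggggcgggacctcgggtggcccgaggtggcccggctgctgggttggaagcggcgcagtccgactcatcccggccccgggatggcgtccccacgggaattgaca
PGK1: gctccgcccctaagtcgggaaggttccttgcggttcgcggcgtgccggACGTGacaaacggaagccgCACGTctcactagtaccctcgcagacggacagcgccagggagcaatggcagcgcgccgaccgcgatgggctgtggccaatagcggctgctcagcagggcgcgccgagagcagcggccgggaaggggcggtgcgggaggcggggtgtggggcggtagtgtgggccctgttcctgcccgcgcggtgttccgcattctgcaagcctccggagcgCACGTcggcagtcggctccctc

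The motif ACGTG, searched on both strands, lay in the PGK1 window at 3 places, in the ENO2 window at 1, and in neither the PFKFB4 window nor the PFKM window shown. That window is the first of 7 for PFKM, of which the second and the third hold the motif at 1 place each. Among the 59 windows of 29 of the 32 genes, 22 (37.3%) held it, against 21.4% of all 35116 windows. Counted by gene, with at least 1 window holding it, these were 18 of 29 (62.1%), against 24.9% of all 27305 genes. CACGTG, the E-box bound by MYC and related factors, which contains ACGTG, lay in 8 of the 59 windows (13.6%), against 7.26% of all windows, and in 8 of the 29 genes (27.6%), against 8.77% of all genes. Genes have unequal numbers of windows, from 1 to 7 among these, and a gene with more windows has more places for a match. The 27305 genes were not matched to the 29 for expression, gene type or number of windows. Enrichment of either motif was therefore not tested. A match describes the letters only, and its absence here says nothing about other parts of a gene.

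The target of sh-TRAF2#1 was compared with the 3′ untranslated regions (3′UTRs), because earlier results of these data had drawn attention to its bases 10 to 16, ATTCCAC, in capitals here.
sh-TRAF2#1: cccttgcagATTCCACgccat
sh-TRAF2#2: ctggaccaagacaagattgaa

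In the longest 3′UTR of GENCODE release 29, ATTCCAC was carried by 1133 of 10608 tested genes (10.7%) and by 2 of the 31 tested glycolysis genes, PDK1 and DLAT. The sites, with the heptamer in capitals, read as follows.
PDK1: ctccttctATTCCACtatgaaca
DLAT: ctccatatATTCCACacagactt

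Neither carrier was called, with log2 fold changes of -0.03 for PDK1 and 0.13 for DLAT. PFKM, SLC2A3, SLC16A1 and PDK2, the genes called lower, do not hold these letters in that region. No other stretch of either hairpin's target was searched, and which hairpin was sequenced is not known. Whether a hairpin acted directly on any of these genes was therefore not tested.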

How the data were processed

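Total RNA was extracted with TRIzol, and libraries were made with the VAHTS Universal V6 kit, sequenced and processed by OE Biotech. The authors deposited FPKM for 23002 genes in 6 samples. The submitters' processing notes name HISAT2, HTSeq, R 3.2.0 and DESeq2 without roles. The genome build, annotation and use of strand are not given in the sources used here.

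Deposited FPKM were taken as log2(FPKM + 0.1), which understates changes of low genes. Genes averaging 0.5 FPKM or more were fitted by limma 3.58.1 under R 4.3.3, with lmFit and a trended eBayes, and two-sided p-values of the 11870 genes were adjusted by Benjamini-Hochberg. The fit was tested on simulated data. Exact permutation tests of summed levels and shares ran over the 20 assignments of samples and cannot give a p under 0.1.

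Whole reads were recovered from the steps between FPKM values. On simulated data 90.3% of 1907 genes came out exactly, and 98.4% of the 990 with a mean of at least 50 reads. For 2643 genes with reads in 1 sample the count cannot be known.

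Named were the 32 genes, TRAF2, the 3 genes of each other list (50 other pathway genes, 24 regulators and 25 HIF-1 targets) with the smallest adjusted p, and direct partners. CA9 and the overlapping genes were added after their values were seen. The genes and lists were chosen with earlier results of these data known. Of the other pathway genes, 6 were not analysed here, and 1 of the regulators that the rule names is not reported here.

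Alternatives were each sample left out in turn, pseudocounts of 1 and 0.01, no filter, a filter at a mean of 1 FPKM, eBayes with no trend, a replicate block, quantile normalization, and rescaling to TPM. Limma-voom on the recovered reads was chosen after seeing the data. Python 3.11.15 and matplotlib 3.10.9 were used.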

Additional observations from a re-analysis of the deposited data

How the results depend on the processing

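Over 276 comparisons of a glycolysis gene with a changed setting, 257 held their sign and their call, 7 lost a call, 7 gained one and 5 changed sign. The genes that changed sign were not called in either fit. Under quantile normalization SLC2A1 was at -0.064, GPI at -0.0527, GAPDH at 0.0793, PGK1 at -0.0367 and PDK1 at 0.0016. Without a trend in eBayes, 2 glycolysis genes were called higher, and with no filter 2 were, in place of 4. ENO1, ENO2 and SLC16A1 lost their call under both, and SLC2A3 with no filter, while PFKFB2 gained one without a trend and ALDOC with no filter. A filter at a mean of 1 FPKM left PDK2 out and added LDHA and PFKFB3, and a pseudocount of 1 added PFKFB3. Limma-voom called 11 of these genes, including the 8, and added MPC2, PFKFB2 and PFKFB3. With a pseudocount of 1, 46 of all genes passed the threshold of the study as higher and 41 as lower. HIF-1 targets called higher were 0 without a trend, 0 with no filter and 0 after rescaling to TPM, in place of 1. The cause was not tested.

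The replicate numbers did not pair the samples, as deviations of same-numbered samples correlated at -0.081, 0.072 and 0.073. With the replicate block, 8 glycolysis genes were called, the same 8, and 2 HIF-1 targets were called higher.

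With each sample left out in turn, glycolysis genes called higher numbered 2 to 9 (9 without sh-NC replicate 3, 2 without sh-NC replicate 1), those called lower from 2 to 5, and those higher at the threshold of the study from 0 to 1. Over all genes tested, each of these fits called fewer genes in either direction than the fit with all samples (23.7% higher and 20.9% lower). The 9 higher calls without sh-NC replicate 3 thus ran against the change over all genes. The 2 without sh-NC replicate 1 went with it. The median log2 fold change of the 31 genes was 0.11 without sh-NC replicate 3 and -0.07 without sh-NC replicate 2. For HIF-1 targets the higher calls went from 0 to 9 (9 when sh-NC replicate 3 was dropped) and the lower calls from 2 to 6 (6 when sh-NC replicate 2 was). Uncalled genes that changed sign were SLC2A1 (-0.0672 to 0.11), HK2 (-0.15 to 0.11), GPI (-0.0717 to 0.12), PFKL (-0.17 to 0.10), ALDOA (-0.10 to 0.18), TPI1 (-0.0666 to 0.0316), PGK1 (-0.11 to 0.14) and PDK1 (-0.13 to 0.13). PFKM, LDHB and PDHB were called in all 6 fits.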

Other observations

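Regulators of the pathway were read from a list of 24 genes, of which 21 were tested. Of these, 3 were called higher and 7 lower, 47.6% in all, near the 44.6% of all genes tested. AKT1, a kinase that promotes glucose uptake, was at 21.9, 21.4 and 22.1 FPKM in sh-NC and 32.6, 34.6 and 35.5 FPKM in sh-TRAF2 (log2 fold change 0.65, SE 0.04, adjusted p = 2.38e-05 from limma). MTOR, the kinase of both mTOR complexes, rose from 10.02 to 10.6 FPKM in the controls to 15.4 to 17.2 FPKM (log2 fold change 0.64, SE 0.05, adjusted p = 6.16e-05 from limma). For both genes the groups did not overlap.

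The transcription factors best known for inducing glycolysis genes were HIF1A and MYC. HIF1A was at 225, 254 and 234 FPKM in sh-NC and 231, 222 and 216 FPKM in sh-TRAF2 and was not called (log2 fold change -0.09, adjusted p = 0.145 from limma). MYC fell from 84.6 to 90.8 FPKM in the controls to 78.3 to 80.1 FPKM (log2 fold change -0.14, SE 0.04, adjusted p = 0.0134 from limma). TXNIP, a glucose-induced brake on glucose uptake, overlapped between groups (log2 fold change -0.15, adjusted p = 0.228 from limma). Of the 23 tested HIF-1 targets outside the pathway, 1 was called higher and 2 lower, 13.0% in all, against 44.6% of all genes tested. These were KDM4B, a histone demethylase (0.24), DDIT4, an inhibitor of mTOR signalling (-0.51), and STC2, a secreted glycoprotein (-0.35). The median range of the 23 targets within sh-NC was 0.84 on the log2 scale, against 0.15 for all genes tested, which limits how many could be called. With sh-NC replicate 3 dropped, 9 were called higher and 2 lower, and with sh-NC replicate 2 dropped, 0 and 6. The 13.0% therefore does not show that these targets were unchanged.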
